A study of Mus musculus with 2 samples.

Results

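Plasmacytoid dendritic cells (pDC) of the thymus were picked cell by cell from raw UMI counts, a UMI being the tag that marks 1 captured mRNA molecule. A cell counted as a pDC when Siglech, Cox6a2 and Klk1 together reached at least 4 UMIs. It was left out when it held more than 1 UMI of Xcr1 and Clec9a together, of Ccr7 and Fscn1, of Cd3d, Cd3e and Cd3g, or of Cd79a and Ms4a1, or more than 2 UMIs of C1qa, C1qb and C1qc. These sums stand for conventional type 1 dendritic cells (cDC1), activated dendritic cells, T cells, B cells and macrophages. Of 19019 cells with a single genotype hashtag, 1955 met the rule. They were 969 of 7433 Mgl2DTR cells and 986 of 11586 WT cells.

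The cells came from the thymus of 7-week-old mice and were sorted as live cells on CD11c and CD11b after collagenase digestion and magnetic removal of CD90.2+ cells. The first group is Mgl2DTR, named Mgl2DTR_eGFP in the series' text, with diphtheria toxin for 48 hours at 500 ng. The second group is wild type (WT), and the labels do not say whether these mice also received toxin. In the published strain of this name the diphtheria toxin receptor and eGFP sit at Mgl2, which encodes the lectin CD301b, so that toxin kills cells that use this gene, while other cells of the host are spared.

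pDC carry the lectin Siglec-H in the mouse, sense viral nucleic acids in endosomes through TLR7 and TLR9, and can release large amounts of type I interferon. Their identity is held by the E protein E2-2, the product of Tcf4, and they share parts of a lymphoid program, including low levels of immunoglobulin gene transcripts. In the thymus pDC arrive from the blood with the help of CCR9, the receptor for CCL25, and have been studied as carriers of peripheral antigen.

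Cells of both genotypes were loaded as 1 pool, and the genotype of a cell rests on antibody-bound DNA tags. The 15-base hashtag oligos are shown because every comparison of genotypes depends on telling them apart.
Mgl2DTR: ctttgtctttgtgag
B6WT: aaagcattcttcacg
uncategorized: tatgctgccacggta
The Mgl2DTR and B6WT oligos differ at 12 of their 15 bases. The third oligo differs from the Mgl2DTR oligo at 12 bases and from the B6WT oligo at 11, and no cell called for it alone was in the tables.

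Each genotype is therefore 1 hashtagged part of the pool with no named animals, and no difference between genotypes could be tested. Ratios are given with exact 95% intervals that cover counting error only, and differences between animals cannot be told apart from the genotype. A gene was called higher or lower when its ratio of Mgl2DTR over WT was at least 1.5 in either direction, the whole interval lay on that side of 1, and both genotypes together had at least 50 UMIs. The median single-hashtag cell held 6930 UMIs in Mgl2DTR and 7820 in WT. The tables held 28926 cells with no barcode repeated, and 9829 cells called for hashtag pairs and 78 lacking a hashtag do not enter the comparisons.

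The pDC of the genotypes were sequenced to a similar depth, with a median of 6088 UMIs per cell in Mgl2DTR and 6058 in WT. Summed over cells, the profiles rest on 7618219 UMIs in Mgl2DTR and 6648335 UMIs in WT. A difference appeared among the deepest cells, where 52 Mgl2DTR pDC but 8 WT pDC held more than 20000 UMIs. The margin between the strongest and second hashtag of a pDC had a median of 2.30 in Mgl2DTR and 1.65 in WT.

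The lead sum of Siglech, Cox6a2 and Klk1 ran between 4 and 172 UMIs per pDC, with a median of 38, so most members stood far from the limit of 4. Just inside it, 49 cells with exactly 4 UMIs had 346 CPM (counts per 1e+06 UMIs) of Ly6d, 655 CPM of Tcf4 and 166 CPM of Ccr9. Just outside it, 79 cells with 3 UMIs and all other criteria met had 387 CPM of Ly6d, 790 CPM of Tcf4 and 151 CPM of Ccr9. Cells on the sides of the limit were thus much alike in these 3 genes, which the rule did not read. The limits on other cell types removed further cells of the 2959 with at least 4 lead UMIs. Left out were 390 of 1359 Mgl2DTR cells and 614 of 1600 WT cells, a larger part in WT. Most often this was through Xcr1 and Clec9a (492 cells) or Ccr7 and Fscn1 (436 cells).

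The members were not uniform. Leiden clustering of the 1955 cells gave 9 clusters, numbered by size, and clusters 1, 2 and 5 hold 1462 cells, called the core below because their pDC marker levels were highest and few of their cells were called doublets. This choice was made after the values were seen. Doublets were called by neighbourhood, where 12 or more of the 50 cells nearest in expression carried hashtag pairs, and this marked 18.6% of Mgl2DTR and 15.3% of WT pDC. In the core it marked 1.56% of Mgl2DTR and 2.51% of WT cells, against 63.8% of Mgl2DTR and 57.9% of WT cells in the other 6 clusters. Over all single-hashtag cells the call marked 27.35% of Mgl2DTR and 26.93% of WT cells. Pairs were 9829 of all 28926 cells, a larger share than 12 of 50, so the call alone does not show that a cell is a doublet.

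**Figure D1:**
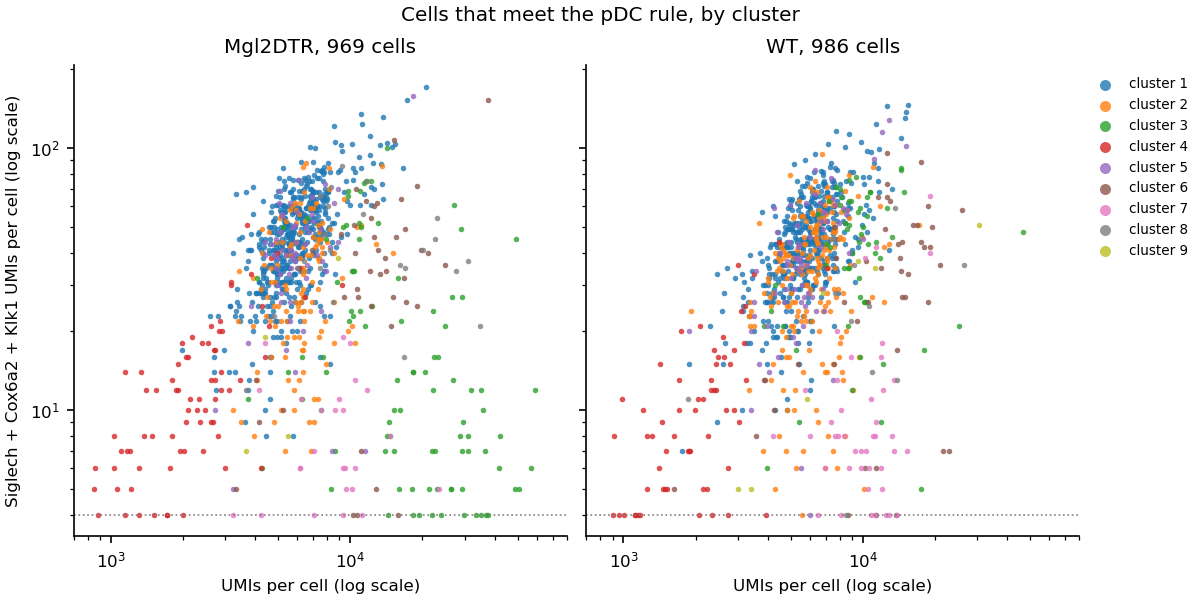
Lead UMIs (Siglech, Cox6a2 and Klk1) of each pDC against its total UMIs, on log axes, for Mgl2DTR (left) and WT (right), 1 point per cell coloured by cluster, with the limit of 4 UMIs dotted. The Mgl2DTR panel holds 52 cells over 20000 UMIs and the WT panel 8. Relative to total UMIs, lead UMIs are highest in cluster 1 (7799 CPM), cluster 5 (6794 CPM) and cluster 2 (5512 CPM), with cluster 4 next (5496 CPM).

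Cluster 1, with 985 cells, was led by Iglc2, Iglc1, Klk1, Klk1b27 and Gm30211, that is by immunoglobulin lambda constant genes, kallikreins and a noncoding RNA. Cluster 2, with 343 cells, was led by the T cell adaptor gene Lat, the guidance receptor gene Robo3, the lectin gene Clec10a, Rnf187 and the secretory cofactor gene Mzb1. Cluster 5, with 134 cells, was led by Ifi44, Isg15, Iigp1, Slfn5 and Usp18, all induced by interferon. The summed level of the 38 interferon-stimulated genes in the tables was 13598 CPM in cluster 5, against 6503 CPM in cluster 1 and 6555 CPM in cluster 2. These are the genes that define the clusters and are descriptions of them.

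The other clusters held fewer pDC transcripts or transcripts of other cells. The 155 cells of cluster 3 were led by Pclaf, Hist1h1b, Hist1h2ap, Hist1h2ae and Prtn3, had 16482 CPM of the cell cycle list, and 49.7% were called doublets. Cluster 4, with 136 cells, was led by Dusp1, Gm42418, Cyp4f18, Gm26917 and Junb, and its median of 2140 UMIs and mitochondrial share of 5.22% were the lowest depth and the highest mitochondrial share of the 9 clusters. The 88 cells of cluster 6 were led by Ccl6, Lyz2, Clec4a3, Bcl2a1b and S100a4, with 85.2% called doublets.

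Cluster 7, with 69 cells, was led by Cd209e, Apod, Cd209d, Ngfr and Cyp7b1 and had the most transcripts of the cDC2 list, 4978 CPM, together with 3892 CPM of the pDC markers. Only 5.80% of cluster 7 was called doublets. In cluster 8, 34 cells were led by Ngp, Lcn2, Ltf, Camp and S100a9, which neutrophils store in granules, and the neutrophil list summed to 236870 CPM. Cluster 9 held 11 cells led by Gzma, Klra4, Nkg7, Il2rb and Klra8, which are genes of natural killer cells. Clusters 3, 4, 6, 7, 8 and 9 were given no other name. Cluster 4 had 12678 CPM of the pDC markers, but 81.6% of its cells were called doublets, although their median depth was the lowest.

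**Figure D2:**
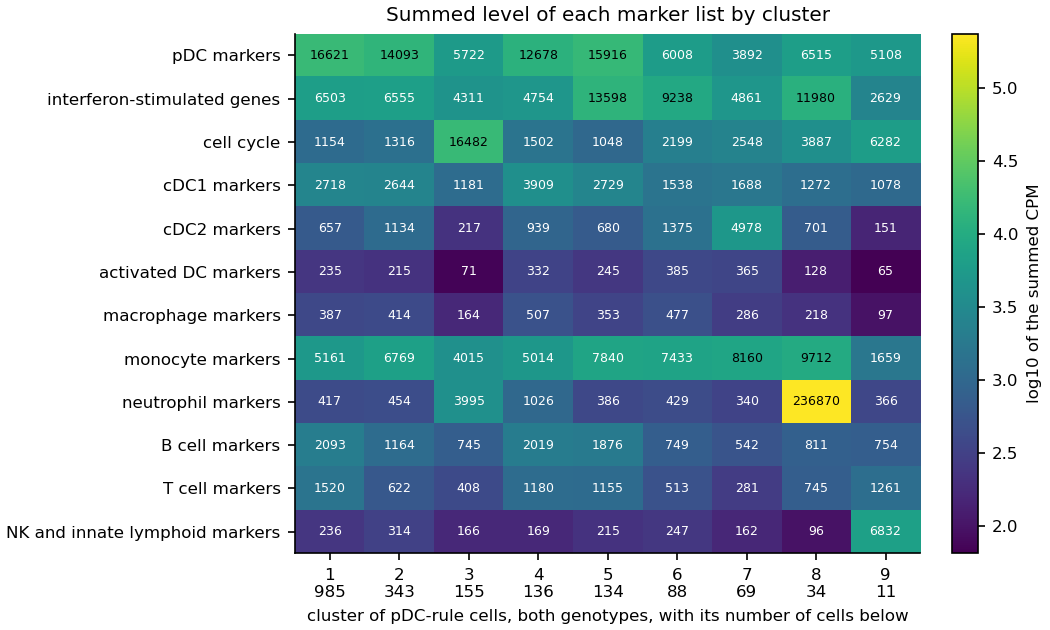
Summed CPM of 12 marker lists (rows) in the 9 clusters of pDC (columns, with their number of cells), coloured on a log10 scale. The pDC markers are highest in cluster 1 (16621 CPM), cluster 5 (15916 CPM) and cluster 2 (14093 CPM), and lowest in cluster 7 (3892 CPM), while the neutrophil list peaks in cluster 8.

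Cluster 3 was itself mixed. Its 43 cells of more than 20000 UMIs, 41 of Mgl2DTR and 2 of WT, had a median of 8 lead UMIs, 230 CPM of Ly6d and 162 CPM of Tcf4. They had 1493 CPM of Ifitm1, with a median of 43 UMIs per cell. Prtn3 and Elane, which encode granule proteases of neutrophil precursors, summed to 1060.6 and 1026 CPM, but the 2 richest cells for each gene held 80.1% of the Prtn3 and 99.7% of the Elane UMIs, and without them the levels were 227 and 3.13 CPM. The remaining 112 cells, 54 of Mgl2DTR and 58 of WT, had a median of 34 lead UMIs, 6319 CPM of Ly6d, 1149 CPM of Tcf4 and 744 CPM of the proliferation gene Mki67, against 9.07 CPM of Mki67 in the core. In the core Ly6d was at 5737 CPM and Tcf4 at 1866 CPM. Other pDC markers were also lower in the 112 cells than in the core: Siglech at 948 against 2222 CPM, Klk1 at 310 against 2008 CPM and Ccr9 at 513 against 1189 CPM. Cells with Ly6d at the core level, less of these other markers and a cell cycle program were thus present in both genotypes. The deep cells had little Ly6d or Tcf4, and their Mki67 was at 405 CPM.

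The core was picked for its level of the pDC marker list, so the values of that list describe the cells and are no check of their label. Ly6d, a surface protein of lymphoid progenitors and pDC, stood at 5971 CPM in Mgl2DTR and 5517 CPM in WT core cells, against 13.7 CPM in Mgl2DTR and 13.6 CPM in WT cDC1 cells. Tcf4 stood at 1850 CPM in Mgl2DTR and 1881 CPM in WT, against 33.6 and 40.8 CPM in the cDC1 cells of Mgl2DTR and WT. With every cell thinned to 2000 UMIs, Ccr9 was detected in 85.1% (95% Clopper-Pearson interval 82.2% to 87.6%) of Mgl2DTR and 80.8% (77.8% to 83.5%) of WT core cells, compared with 4.39% and 5.19% of Mgl2DTR and WT cDC1 cells. The cDC1 cells serve as a type that should lack these genes, and before thinning their median depth was 15008 UMIs in Mgl2DTR and 15581 in WT, against 5813 and 5890 UMIs in the core of Mgl2DTR and WT; unthinned, Ccr9 was detected in 98.4% and 97.4% of core cells of Mgl2DTR and WT.

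Against all other single-hashtag cells, 1171 of 12276 genes measured (9.54%) were at least 2 times higher in the core in both genotypes and 2095 (17.1%) at least 2 times lower. Over all pDC the counts were 967 (7.83%) higher and 1409 (11.4%) lower of 12352. Since the rule picked the cells, these ratios describe them. The rest also holds the 1004 cells with 4 or more lead UMIs that the other limits removed, which keeps the pDC genes of the rest above 0. All 6 pDC markers were higher in the core. Of the 25 transcription factors and cofactors 9 were higher and 4 lower, of 32 surface and adhesion genes 19 were higher and 5 lower, and of 26 nucleic acid sensing genes 10 were higher and 6 lower. All 24 cell cycle genes and 18 of 25 costimulation genes were lower in the core, and 18 of 24 transitional dendritic cell genes. Cluster 3, with 16482 CPM of the cell cycle list, was left out of the core, so the core's low cell cycle level follows in part from that choice.

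Several of the genes with the highest ratios are better known from muscle or vessel. Cdh5, the endothelial cadherin, had 96.8 CPM in Mgl2DTR core cells against 3.13 CPM in the Mgl2DTR rest, and 84.7 CPM in WT core cells against 3.66 CPM in the WT rest. Atp2a1, the calcium pump of fast muscle, had 203 CPM against 7.25 CPM of the rest in Mgl2DTR, and 195 CPM against 8.18 CPM of the rest in WT. The muscle enzyme gene Pgam2 was 24.4 times the rest in Mgl2DTR and 25.7 times in WT. Cox6a2, itself the muscle form of a respiratory chain subunit and part of the rule, was 29.2 and 32.9 times the rest in Mgl2DTR and WT.

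Other genes near the top encode surface receptors, enzymes and a lineage factor. The receptor gene Cd300c reached 27.01 times the rest in Mgl2DTR and 27.5 times in WT. Upb1, an enzyme of pyrimidine breakdown, was 23.6 times the rest in Mgl2DTR and 21.9 times in WT. Runx2, a transcription factor needed for pDC to leave the bone marrow in mice, stood at 621 CPM in Mgl2DTR and 581 CPM in WT core cells, 17 and 17.7 times the rest. A further 12 of the top genes were Sh3bgr, Gm12253, Siglech, Gm21762, Klk1, Smim5, Pir, Paqr5, Klk1b27, Eldr, Hs3st1 and Mctp2, at 18.1 to 34.7 times the rest. Klk1 and Klk1b27 are near-identical kallikreins, whose reads the counting may split.

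**Figure D3:**
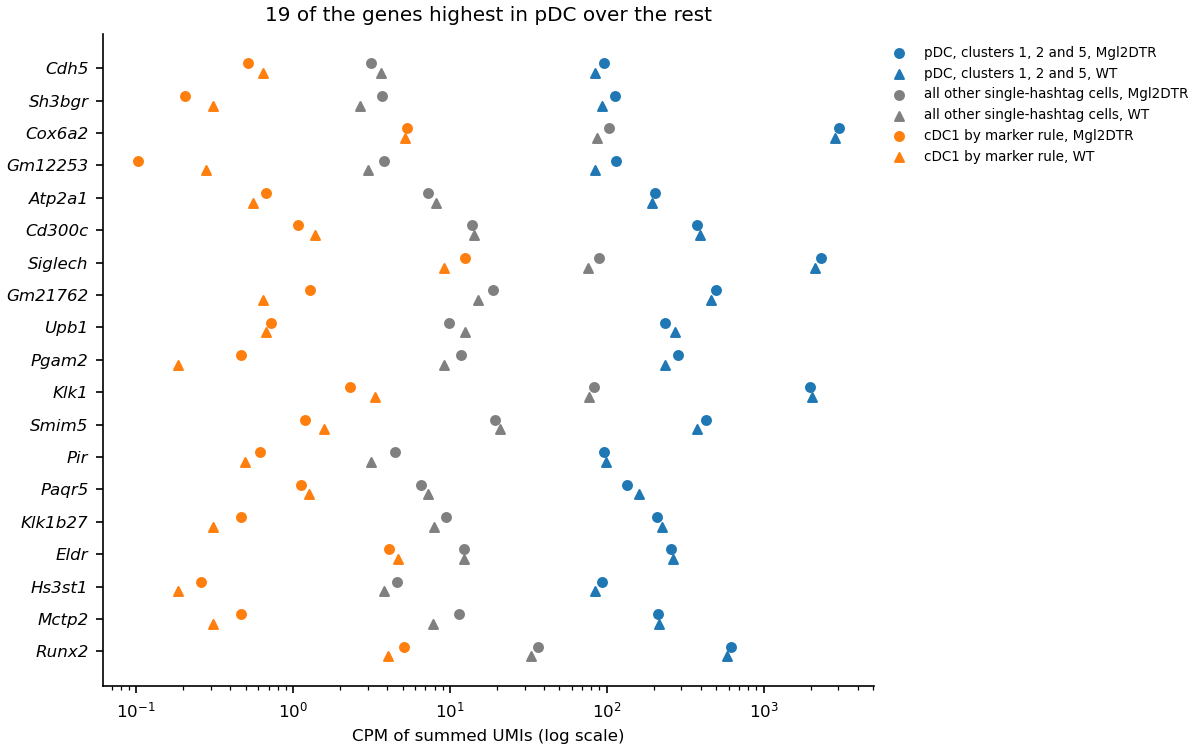
CPM on a log axis of 19 of the genes with the highest pDC over rest ratio, in core pDC, the rest and cDC1 cells of Mgl2DTR and WT. For Cox6a2 the core stands at 3014 CPM in Mgl2DTR and 2839 CPM in WT, and the cDC1 cells at 5.37 and 5.21 CPM.

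E proteins such as E2-2 bind E-boxes, and the 250 bases before the start of a pair of rule genes are shown because each holds 1 such box (RefSeq, build GRCm38.p6). Capitals mark the E-box, searched on both strands as CAGGTG, which reads CACCTG on the other strand, and as the palindrome CAGCTG. Siglech lies on the forward strand at chr7:55767934-55768183 and Klk1 on the forward strand at chr7:44225110-44225359.
Siglech: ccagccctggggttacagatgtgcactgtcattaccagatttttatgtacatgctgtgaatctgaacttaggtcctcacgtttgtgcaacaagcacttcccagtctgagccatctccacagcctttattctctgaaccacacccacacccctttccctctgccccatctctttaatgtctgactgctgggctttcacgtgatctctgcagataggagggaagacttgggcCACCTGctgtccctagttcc
Klk1: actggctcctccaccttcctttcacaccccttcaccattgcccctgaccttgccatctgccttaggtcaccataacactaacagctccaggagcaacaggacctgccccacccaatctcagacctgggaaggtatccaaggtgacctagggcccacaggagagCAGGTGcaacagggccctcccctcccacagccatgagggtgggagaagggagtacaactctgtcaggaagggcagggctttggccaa
The box of Siglech starts 20 bases and that of Klk1 87 bases before the gene start, and neither overlaps another motif searched. Of the 19 genes named as highest over the rest, 14 had a promoter in the table, and 8 of these 14 (57.1%) held such an E-box in this window, against 7406 of all 27025 promoters (27.4%). A match describes the letters and is not a bound site.

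The share of pDC was higher in Mgl2DTR. They made up 13.04% (12.3% to 13.8%) of Mgl2DTR single-hashtag cells and 8.51% (8.01% to 9.03%) of WT cells, a ratio of 1.53 (1.40 to 1.68). Of the dendritic cells found by marker rules they made up 28.98% of 3344 Mgl2DTR cells and 17.1% of 5761 WT cells, a ratio of 1.69 (1.55 to 1.85). Type 2 cells entered that denominator with at least 4 UMIs of Cd209a, Cd209d, Mgl2 and Epcam together. Outside the pDC the ratio of Mgl2DTR over WT was 0.164 for Mgl2, 0.322 for Cd209a and 0.269 for Cd209d. Type 2 cells with less of these transcripts would be missed in Mgl2DTR, so the 1.69 depends on this rule. Core cells alone were 9.47% of Mgl2DTR and 6.54% of WT cells, a ratio of 1.45 (1.30 to 1.61). A share depends on all other cells in the sort, and cells that toxin removed would leave the denominator, so more pDC and fewer other cells cannot be told apart here. Leaving out the 25% of cells with the lowest hashtag margin gave a ratio of 1.91. The limits on other cell types removed 390 of 1359 Mgl2DTR and 614 of 1600 WT cells with at least 4 lead UMIs. That is a larger part in WT. Without these limits, 1359 of 7433 Mgl2DTR and 1600 of 11586 WT cells counted, a share still higher in Mgl2DTR but by less. The ratio of 1.53 thus depends in part on the limits.

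Mgl2 itself followed the labels. Outside the pDC it stood at 17.9 CPM in Mgl2DTR and 109 CPM in WT. Over all pDC it stood at 18.5 CPM in Mgl2DTR and 111 CPM in WT, a ratio of 0.167 (0.1384 to 0.2002). Cluster 7 had 142 CPM in Mgl2DTR and 752 CPM in WT, and cluster 6 had 21.2 CPM in Mgl2DTR and 396 CPM in WT, while the core had 19.4 CPM in Mgl2DTR and 30.03 CPM in WT, a ratio of 0.646 (0.488 to 0.852). Fewer cells that use the gene and less transcript from the altered locus cannot be told apart.

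Over all pDC, 539 of 9780 genes measured (5.51%) were higher in Mgl2DTR and 219 (2.24%) lower, with a median log2 ratio of -0.01. Within the core the numbers were 125 of 8482 (1.47%) higher and 166 (1.96%) lower, with a median log2 ratio of -0.03. Cluster by cluster, 114 (1.5%) of 7594 genes measured were higher and 150 (1.98%) lower in cluster 1, 81 (1.7%) of 4751 higher and 102 (2.15%) lower in cluster 2, and 67 (2.95%) of 2271 higher and 63 (2.77%) lower in cluster 5. The calls for all pDC and for the core overlapped in part: 48 genes were higher in both, 8.91% of the calls over all pDC and 38.4% of the core calls. For lower genes 56 were shared, 25.6% of the calls over all pDC and 33.7% of those in the core. Of the calls over all pDC, 309 of the 539 higher and 69 of the 219 lower were in genes with too few UMIs to be measured in the core. The core clusters were not in the same proportion in the genotypes: cluster 1 was 72.4% of Mgl2DTR and 62.7% of WT core cells, cluster 2 was 18.8% and 27.8%, and cluster 5 was 8.81% and 9.50%. With the same cluster mix set in both genotypes, an alternative added after the values were seen, 108 of the 125 higher and 142 of the 166 lower genes were still called, and those named below that were not are given with that ratio. The leading genes over all pDC are given first, and the later results are those of the core.

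Most neutrophil markers and cell cycle genes were higher in Mgl2DTR over all pDC. Of 12 neutrophil markers 10 were higher in Mgl2DTR with a median log2 ratio of 1.20, and their summed level was 11321 CPM in Mgl2DTR and 4836 CPM in WT. In the core 0 of the 6 measured were called, and the sums were 404 CPM in Mgl2DTR and 440 CPM in WT. Of 24 cell cycle genes 18 were higher over all pDC with a median log2 ratio of 0.80, against 0 higher and 1 lower (Top2a, at a ratio of 0.570) of 16 measured in the core. The core leaves out cluster 3, with 16482 CPM of the cell cycle list, and cluster 8, with 236870 CPM of the neutrophil list. The lack of higher calls for these lists in the core thus follows in part from that choice. The gene with the highest ratio over all pDC, Ifitm1, had 341 CPM in Mgl2DTR and 7.37 CPM in WT, and 83.4% of its Mgl2DTR counts lay in cells of more than 20000 UMIs. In the core Ifitm1 had 20 UMIs in Mgl2DTR and 25 in WT.

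The other genes that led the list over all pDC were Lrg1, Ccl6, Hist1h1a, Rrm2, Gda, Pclaf, Cxcl2, Hist1h2ap, Cdca7, Dut and Lcn2, with ratios of 3.06 to 6.23. Of these 11, Ccl6, Pclaf, Cxcl2, Hist1h2ap, Dut and Lcn2 were measured in the core, and none of these 6 was called higher there. Cxcl2, a neutrophil chemoattractant, was lower there at 8.90 CPM in Mgl2DTR and 21.2 CPM in WT. The lowest ratios over all pDC were those of Mgl2, Gzma, Cd209e, Ctsg, Cd209a, Hfe, Cd209d, Il4i1, Cadm1, Setbp1, Robo3 and Hist3h2ba, between 0.167 and 0.494. The neutrophil protease gene Ctsg did not keep its side, since its ratio was 0.286 over all pDC and 5.71 without cells called doublets. Mgl2, Cd209a, Cadm1, Setbp1, Robo3 and Hist3h2ba were also called lower in the core. The part of the deep cells and of free RNA in the differences over all pDC was not tested beyond these values.

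**Figure D4:**
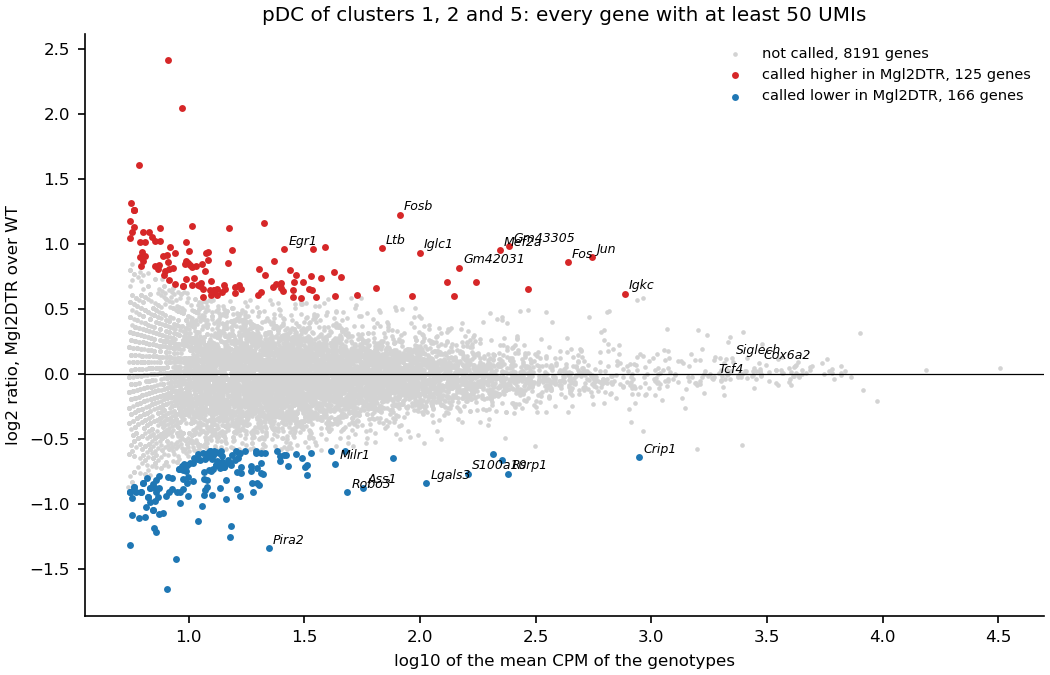
Log2 ratio of Mgl2DTR over WT against log10 mean CPM for the 8482 genes measured in core pDC, 1 point per gene. The 125 genes called higher and the 166 called lower are coloured, the 8191 others are grey, and Fosb lies near the top at a ratio of 2.34.

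Of the 6 pDC markers 0 were called in the core, whose choice rests on these same genes. Siglech had 2320.0 CPM in Mgl2DTR and 2131 CPM in WT, a ratio of 1.09 (1.06 to 1.12). Klk1 had 1971 CPM in Mgl2DTR and 2044 CPM in WT. The ratio was 1.08 for Ly6d, 0.98 for Tcf4, 1.09 for Ccr9 and 1.06 for Cox6a2. Siglech, Cox6a2 and Klk1 chose the cells and all 6 entered the choice of the core, so their levels are a description.

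Immediate early genes, which cells transcribe within minutes of a stimulus, were the list with the most genes higher in the core. Of 32 measured, 6 were higher and 0 lower, where 1.47% of all genes were higher, and the median log2 ratio was 0.35 against -0.03 over all genes. Fosb, a subunit of the AP-1 transcription factor, had 114 CPM in Mgl2DTR and 48.9 CPM in WT, a ratio of 2.34 (2.00 to 2.75), the highest among core genes with at least 200 UMIs that keep their side with every cell weighted equally. Jun, another AP-1 subunit, had 722 CPM in Mgl2DTR and 387 CPM in WT, a ratio of 1.86 (1.76 to 1.98), or 1.71 with the same cluster mix in both genotypes.

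Fos stood at 560.3 CPM in Mgl2DTR and 308 CPM in WT, a ratio of 1.82 (1.70 to 1.94). Egr1, an early zinc finger factor, had 34.3 CPM in Mgl2DTR and 17.6 CPM in WT, a ratio of 1.95 (1.48 to 2.58). Klf4, a factor that also marks conventional type 2 cells, had 53.9 CPM in Mgl2DTR and 31.3 CPM in WT, a ratio of 1.72 (1.39 to 2.13). The phosphatase gene Dusp1 had 46.6 CPM in Mgl2DTR and 27.9 CPM in WT, a ratio of 1.67 (1.33 to 2.10). Below the threshold of size stood Hspa8 at 1.5, Junb at 1.39, Jund at 1.40 and Klf2 at 1.40, while Gadd45b was at 0.887.

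The ratios of the 6 genes varied across the core clusters, in part at low counts. The ratio of Fosb was 2.16 in cluster 1, 2.06 in cluster 2 and 2.95 in cluster 5, and that of Jun 1.77, 1.53 and 1.31. Fos was at 1.93 in cluster 1 and 1.44 in cluster 2, but at 0.784 in cluster 5. Egr1 was at 2.64 in cluster 1, at 0.328 in cluster 2 and at 0.142 in cluster 5, so its call rests on cluster 1. Cluster 1 alone had 7 of 31 measured genes of the list higher and 1 lower, where 1.5% of all genes were higher. Cluster 2 had 2 of 26 higher and 0 lower, where 1.7% of all genes were higher. In cluster 5, 2 of 19 were higher and 1 lower, where 2.95% of all genes were higher.

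With each cell thinned to 2000 UMIs, Fosb was detected in 13.7% (11.2% to 16.4%) of Mgl2DTR and 5.44% (3.93% to 7.30%) of WT core cells. Jun was detected in 54.0% (50.3% to 57.8%) of Mgl2DTR and 37% (33.5% to 40.6%) of WT core cells. Unthinned, Fosb was detected in 32.5% of Mgl2DTR and 17.7% of WT core cells, and Jun in 74.4% and 60.8%. No dendritic cell type is known to lack these genes, so no background share could be set beside them. In cDC1 cells thinned in the same way, Fosb was detected in 24.88% of Mgl2DTR and 17.97% of WT cells. Jun was detected in 35.12% of Mgl2DTR and 32.29% of WT cDC1 cells. In both genotypes the cDC1 share was thus above that of the core for Fosb and below it for Jun.

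Higher levels of immediate early genes were also present outside the pDC. In cDC1 cells the ratio was 1.32 (1.26 to 1.40) for Fosb, 1.22 (1.18 to 1.26) for Jun and 1.32 (1.29 to 1.34) for Fos, none past 1.5, while Klf4 (1.61) and Dusp1 (1.71) were called higher. In the rest as a whole Fosb was at 1.47, Jun at 1.15, Fos at 1.38 and Dusp1 at 2.13. The intervals of the ratios for Fosb and Jun in the core did not overlap those in cDC1 cells. They cover counting error only, not the spread between cells or animals, so they cannot decide whether the cell types differ. With 1 hashtag per genotype, a difference between cell types was not tested across animals. Over all pDC 15 of 37 genes of the list were higher and 0 lower, where 5.51% of all genes were higher, with Fosb at 2.79 and Jun at 1.66. Mitochondrial transcripts, a sign of cell quality, summed to 29882 CPM in Mgl2DTR and 28586 CPM in WT core cells, and their part in the list's ratios was not tested.

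**Figure D5:**
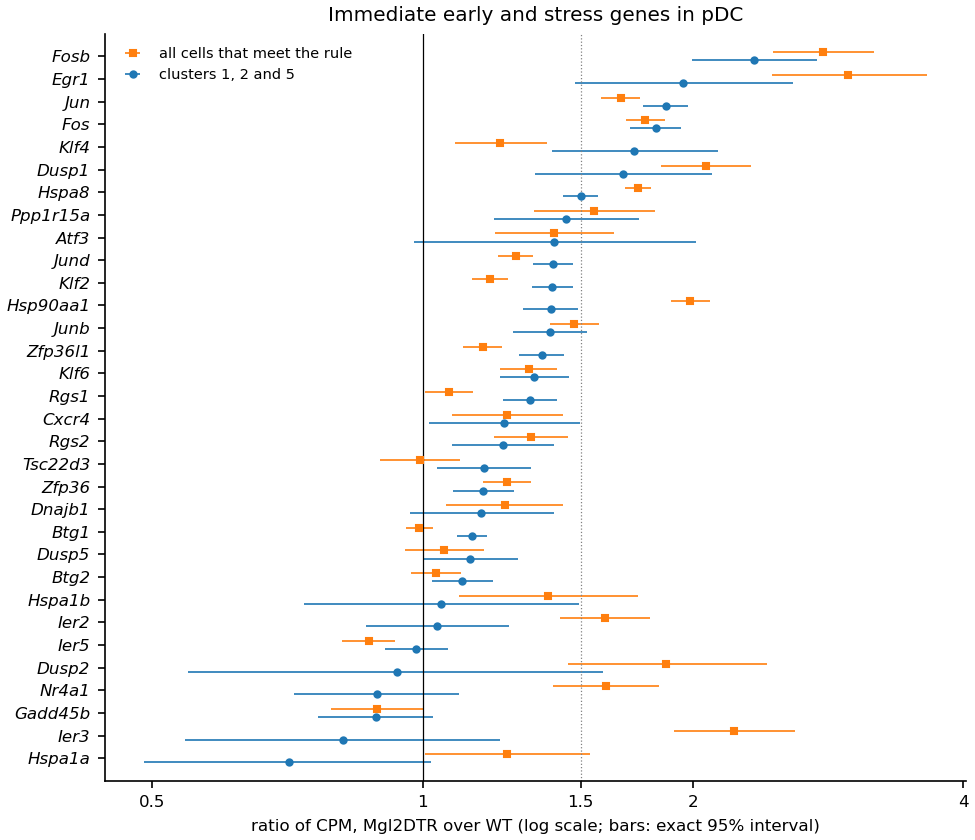
Ratio of Mgl2DTR over WT with its exact 95% interval, on a log axis, for the 32 immediate early and stress genes measured in the core, shown for core pDC and for all pDC. In the core Fosb lies at 2.34 and Jun at 1.86, and Hspa1a is lowest at 0.710.

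Jun and Dusp1 are shown because, of the 5 called genes of the list with a promoter in the table, they hold the motif TGACNTCA, the kind of site that factors of the CREB and AP-1 families bind (RefSeq, build GRCm38.p6). Capitals mark the motif, searched on both strands in the 250 bases before the start. Jun lies on the reverse strand with this window at chr4:95052223-95052472, and Dusp1 on the reverse strand at chr17:26508473-26508722.
Jun: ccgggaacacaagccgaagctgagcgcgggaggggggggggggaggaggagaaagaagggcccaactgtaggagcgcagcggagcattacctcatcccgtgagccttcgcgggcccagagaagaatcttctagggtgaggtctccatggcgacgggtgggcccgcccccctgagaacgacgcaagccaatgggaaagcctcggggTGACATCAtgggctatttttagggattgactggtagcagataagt
Dusp1: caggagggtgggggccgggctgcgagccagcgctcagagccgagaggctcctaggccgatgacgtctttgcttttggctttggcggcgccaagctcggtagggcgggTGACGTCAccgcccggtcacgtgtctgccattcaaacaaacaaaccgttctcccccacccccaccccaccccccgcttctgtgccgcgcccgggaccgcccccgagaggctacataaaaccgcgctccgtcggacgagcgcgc
The motif starts 45 bases before the start of Jun and 143 bases before that of Dusp1 and overlaps no other motif searched. It was present in 5 of 32 promoters of the list (15.6%) and in 2052 of all 27025 (7.59%). The CArG box, the site of serum response factor, was in 2 of the 32 and in 378 of all (1.40%), and in none of the 5 called. The window of Fosb, called highest, held neither motif, and the lack of a match says only that these letters are absent from it.

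Mef2a, a MADS-box transcription factor, was the 1 gene of 23 transcription factors and cofactors measured that was called. It had 291 CPM in Mgl2DTR and 151 CPM in WT core cells, a ratio of 1.93 (1.76 to 2.13). The ratio was 2.11 in cluster 1, 1.58 in cluster 2 and 1.77 in cluster 5, and the gene was called higher in each. In cDC1 cells Mef2a had 65.6 CPM in Mgl2DTR and 80.2 CPM in WT, a ratio of 0.818, and in the rest 86.4 and 91.0 CPM, so the direction in the core was not that of the other cells. Its gene, at chr7:67231163-67372858, overlaps others on the opposite strand, and whether the counting used strand is not given in the sources used.

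The other factors of pDC identity differed little. Irf8, needed by several dendritic lineages, had 2472 CPM in Mgl2DTR and 2473 CPM in WT. Spib, which acts with E2-2, had 242 CPM in Mgl2DTR and 248 CPM in WT, a ratio of 0.974 (0.896 to 1.06). Mef2c, the paralog of Mef2a, stood at 634 CPM in Mgl2DTR and 702 CPM in WT, a ratio of 0.903 (0.858 to 0.950). Id2, an inhibitor of E proteins, had 25.6 CPM in Mgl2DTR and 26.2 CPM in WT.

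Of the immunoglobulin light chain constant genes in the tables, Igkc and Iglc1 were called higher in the Mgl2DTR core, and Igkc only with the cluster mix as found. Igkc, the kappa constant gene, had 931 CPM in Mgl2DTR and 607 CPM in WT, a ratio of 1.53 (1.46 to 1.61), which was 1.40 (1.33 to 1.47) and no longer called with the same cluster mix in both genotypes. It lies at chr6:70726435-70726966 on the forward strand of GRCm38. Iglc1, a lambda constant gene, had 131 CPM in Mgl2DTR and 68.4 CPM in WT, a ratio of 1.91 (1.66 to 2.20), or 1.68 with the same mix. Iglc2 was at 343 CPM in Mgl2DTR and 244 CPM in WT, a ratio of 1.40 that was not called, and Iglc3, the most abundant, at 1349 CPM in Mgl2DTR and 1257 CPM in WT, a ratio of 1.07. Iglc2 and Iglc3 are near-identical, so the counting may split or drop their reads. How reads were shared among the lambda constant genes was not tested. Gm30211, which overlaps Igkc on the same strand, had a ratio of 1.64, or 1.46 with the same mix.

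The heavy chain gene Ighm was not called, at 1066 CPM in Mgl2DTR and 978 CPM in WT, a ratio of 1.09 (1.05 to 1.14). Dntt, the polymerase that adds bases at antigen receptor joints, had 67.8 CPM in Mgl2DTR and 64.8 CPM in WT. Tcf3, another E protein gene, was called lower at 15.8 CPM in Mgl2DTR and 25.3 CPM in WT. In all, 2 of 13 measured genes of the lymphoid list were higher and 1 lower, with a median log2 ratio of 0.11.

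Per cell, at least 5 Igkc UMIs were present in 40.8% of Mgl2DTR and 26.5% of WT core cells. Such cells were 50.4% of Mgl2DTR and 34.9% of WT cells in cluster 1 and 37.1% of Mgl2DTR and 27.8% of WT cells in cluster 5, whereas in cluster 2 they were 5.30% of Mgl2DTR and 7.11% of WT cells. The ratio of Igkc was 1.46 in cluster 1, 1.12 in cluster 2 and 1.10 in cluster 5, past 1.5 in none of the 3. Thinned to 2000 UMIs, Igkc was detected in 59.0% (55.3% to 62.7%) of Mgl2DTR and 41.9% (38.4% to 45.5%) of WT core cells, against 8.05% and 6.88% of Mgl2DTR and WT cDC1 cells, which should lack it. Unthinned, the core shares were 76.1% in Mgl2DTR and 58.6% in WT, and those of cDC1 cells 40.3% and 40.6%. Igkc in cDC1 cells was 37.2 CPM in Mgl2DTR and 36.9 CPM in WT, a ratio of 1.01. Of the B cell markers outside the immunoglobulin loci, Cd79b was at 49.8 CPM in Mgl2DTR and 67.3 CPM in WT core cells, and Cd79a and Ms4a1 were limited to 1 UMI per cell by the rule.

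Beyond the lists, the core genes with the highest ratios included Gm43305, Tent5c, Ltb, Hsph1, Arrdc3 and Gm42031. Ltb, which encodes lymphotoxin beta, had 90.6 CPM in Mgl2DTR and 46.3 CPM in WT, a ratio of 1.96 (1.65 to 2.32), but 0.867 in cluster 2. Tent5c, for a poly(A) polymerase, had 51.4 CPM in Mgl2DTR and 26.2 CPM in WT. Gm43305, Gm42031 and the heat shock gene Hsph1 had like ratios in cDC1 cells (1.80, 1.69 and 1.63) and in the rest, whereas Ltb stood at 0.732 in cDC1 cells and 1.07 in the rest. Il12a, a subunit of interleukin 12, had 8.22 CPM in Mgl2DTR and 3.43 CPM in WT, a ratio of 2.40 (1.30 to 4.62) at low counts.

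Among genes lower in Mgl2DTR core cells were several of the transitional dendritic cell list, which holds genes shared by pDC-like cells and type 2 conventional cells. Of 19 measured, 5 were lower (3 with the same cluster mix in both genotypes), where 1.96% of all genes were lower, and 1 (Klf4) was higher, and the median log2 ratio was -0.31. Crip1, a small LIM domain protein gene, had 695 CPM in Mgl2DTR and 1082 CPM in WT, a ratio of 0.642 (0.614 to 0.672), which was 0.691 (0.661 to 0.723) and no longer called with the same cluster mix in both genotypes. Lgals3, for galectin-3, had 76.3 CPM in Mgl2DTR and 136 CPM in WT, a ratio of 0.560 (0.489 to 0.640).

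Vim, the intermediate filament vimentin, had 175 CPM in Mgl2DTR and 277 CPM in WT, a ratio of 0.633 (0.578 to 0.692). Cd209a, a lectin gene of type 2 cells, had 59.8 CPM in Mgl2DTR and 93.7 CPM in WT, with a ratio of 0.669 and no call under the same mix, and S100a4, for a calcium-binding protein, 33.1 and 49.8 CPM. The ratios of Crip1 and Lgals3 lay below 1 in each core cluster, between 0.675 and 0.727 for Crip1, past the size of 1.5 in none, and between 0.462 and 0.713 for Lgals3. In cDC1 cells Crip1 was at 0.935, Vim at 0.856, S100a4 at 0.8975 and Lgals3 at 1.21, none called. Cd209a was called lower there, at a ratio of 0.223. Not all of the list followed: Cst3 was at 0.896, Clec12a at 0.950 and Sirpa at 0.963.

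The list of markers of type 2 conventional cells (cDC2) shares Cd209a with this group. The 12 cDC2 markers summed to 694 CPM in Mgl2DTR and 851 CPM in WT core cells, and 2 of the 7 measured, Mgl2 and Cd209a, were called lower, but neither with the same cluster mix, where Mgl2 was at 0.709. In cluster 2 the sums were 1131 CPM in Mgl2DTR and 1137 CPM in WT with 0 calls, while the transitional list summed to 4858 CPM in Mgl2DTR and 6065 CPM in WT. In the rest the cDC2 list summed to 403 CPM in Mgl2DTR and 678 CPM in WT. The part of cDC2 transcripts in the lower genes was not tested.

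Other lower genes of the core were not on this list. Pira2, an activating receptor of myeloid cells, had 12.6 CPM in Mgl2DTR and 31.7 CPM in WT, a ratio of 0.396 (0.285 to 0.542), with paralogs that may share its reads. Robo3 had 33.8 CPM in Mgl2DTR and 63.3 CPM in WT, and the urea cycle enzyme gene Ass1 had 40.2 and 73.6 CPM. S100a10, the partner of annexin A2, had 120 CPM in Mgl2DTR and 203 CPM in WT, a ratio of 0.588 (0.528 to 0.655), and was called lower in clusters 1, 2 and 5. Rsrp1 was lower too, at 0.588 in the core, but likewise at 0.512 in cDC1 cells and 0.536 in the rest. Myadm, Zfc3h1, Nsun2, Milr1 and Fcgrt were also among the lowest, with ratios of 0.610 to 0.630, and Fcgrt was at 0.709 and not called under the same mix. S100a10 was also called lower in cDC1 cells, at 0.644, but stood at 1.04 in the rest. Robo3 (0.567) and Ass1 (0.659) were called lower in the rest, but not in cDC1 cells, where Robo3 was nearly absent and Ass1 at 0.730. Pira2 was called higher in cDC1 cells (1.60) and in the rest (2.42).

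The sensing and interferon machinery gave few calls. Of 21 measured nucleic acid sensing genes 0 were called in either direction, with a median log2 ratio of -0.09. Of all genes measured in the core, 1.47% were higher and 1.96% lower. Few calls in a list of this size thus do not set it apart from all genes. Tlr7 had 128 CPM in Mgl2DTR and 122 CPM in WT, a ratio of 1.05 (0.934 to 1.18), and the rest had 13.6 CPM in Mgl2DTR and 10.2 CPM in WT. Tlr9 was scarce, at 6.62 CPM in Mgl2DTR and 6.01 CPM in WT. Unc93b1, the chaperone that brings both receptors to endosomes, had 517 CPM in Mgl2DTR and 499.9 CPM in WT.

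Of the 21 type I and III interferon genes listed, 4 were in the tables and the others were not analysed here. None of the 4 was measured, and together they summed to 0.228 CPM in Mgl2DTR and 0.858 CPM in WT core cells. Among 28 measured interferon-stimulated genes 0 were higher and 2 lower, with a median log2 ratio of -0.07. The 2 were Ifit2, with 8.22 CPM in Mgl2DTR and 12.9 CPM in WT, and Rsad2, with 6.16 and 12.2 CPM, both antiviral effectors at low level. Isg15 had 137 CPM in Mgl2DTR and 146 CPM in WT, a ratio of 0.94, and Irf7, the factor that drives interferon transcription, 185 and 176 CPM. Over all pDC 6 of 37 measured genes of this list were higher, where 5.51% of all genes were. Among the 6 was Oas2, whose ratio was 2.43 over all pDC and 0.710 in the core.

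Few genes of antigen presentation were called, where 1.47% of all core genes were higher, and none with the same cluster mix. Of 17 class II genes 1, H2-DMb2, was called higher, with 78.99 CPM in Mgl2DTR and 49.97 CPM in WT, with a ratio of 1.44 under the same mix, and the median log2 ratio was 0.11. In cluster 2 the median log2 ratio of the list was -0.09, and its sum was 10944 CPM in Mgl2DTR and 11769 CPM in WT. H2-Aa had 2764 CPM in Mgl2DTR and 2207 CPM in WT, a ratio of 1.25 (1.22 to 1.29). Cd74, the invariant chain, had 8847 CPM in Mgl2DTR and 7130 CPM in WT, a ratio of 1.24, but 0.884 in cluster 2. Of 18 class I genes 1, H2-Q6, was called higher, at 168 CPM in Mgl2DTR and 111 CPM in WT, a gene with close paralogs in its locus and a ratio of 1.37 under the same mix.

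The remaining lists gave few calls, as did all genes of the core, of which 1.47% were higher and 1.96% lower. The 17 measured chemokine receptor and trafficking genes gave 0 calls, and the same held for 13 interferon receptor and signalling genes, 32 secretory pathway genes, 21 cytokine receptor genes, 18 costimulation genes and 13 mitochondrial genes. The secretory pathway list had the largest median log2 ratio of these, 0.17, with the chaperone gene Hspa5 at 784 CPM in Mgl2DTR and 671 CPM in WT. Of the chemokines, Ccl4 stood at 3846 CPM in Mgl2DTR and 3517 CPM in WT. Of 18 survival genes Bid was called lower at a ratio of 0.545. Il4ra, the interleukin-4 receptor chain, had 21.5 CPM in Mgl2DTR and 21.7 CPM in WT, a ratio of 0.99, while Irs2, which signals below it, was called higher at 24.2 and 15.9 CPM, though not with the same mix (1.47).

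Transcripts of the Y chromosome were present in both genotypes. Ddx3y had 74.2 CPM in Mgl2DTR and 56.6 CPM in WT core cells, and Eif2s3y 42.2 and 25.1 CPM, a ratio of 1.68 (1.33 to 2.14). The ratio of Eif2s3y was 1.61 in cDC1 cells and 1.66 in the rest, close to that in the core.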

How the data were processed

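Gene expression and hashtag libraries of 1 pool of thymus cells were made with the 10x 3′ kit, per the labels' protocols. The submitters' processing notes name Cell Ranger 6.0.0, Seurat 4.0.4 and the build mm10; annotation and strand setting are not given in the sources used here. Per the files, the deposited matrices are raw counts (unscaled UMIs) of 20451 genes in 28926 cells and of 3 hashtag oligos. The authors' annotation table adds a hashtag call for every cell and a score for how far the top hashtag exceeds the next; 7 of its columns were not used. Genotype was taken from the hashtag call.

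UMIs were summed over the pDC of each genotype, divided by the summed total and given as CPM with exact Poisson limits; ratios have exact conditional limits and shares Clopper-Pearson limits. Genes with at least 50 UMIs were measured. Cells were clustered on 2000 variable genes, 20 principal components and 15 neighbours with leidenalg 0.10.2 at resolution 0.5, and principal components of all cells served to call doublets, which stayed in. cDC1 cells held at least 4 UMIs of Xcr1 and Clec9a under the other limits. Scripts ran in Python 3.11.15 with numpy 2.4.6 and scipy 1.17.1 and were tested on simulated data. Gene positions are from GENCODE on GRCm38 and sequences from RefSeq.

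Named genes were the pDC markers, list members called between genotypes and those at the ends of a list, the 12 highest and 12 lowest called genes with at least 200 UMIs whose side holds with equal cell weights and stricter limits, the 20 highest against the rest, and 5 leading genes per cluster, of which some are not reported here; the same rule was applied to the core without the stricter limits. Genes outside it, such as Spib, Irf8, Tlr7 and Ighm, were chosen after their values were seen. The members and lists were chosen with earlier results of these data known. Limits, filters, doublets, depth, cell weights, thinning, hashtag margin and cluster mix were varied; for the last, the CPM of each core cluster was weighted by its share of the UMIs of both genotypes together, with Poisson errors on the log scale.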

Additional observations from a re-analysis of the deposited data

Results flagged for a closer look

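Cells with a pair of hashtags lie outside the comparison of genotypes, and some of them met the pDC rule. Of 4755 cells with both the Mgl2DTR and the B6WT hashtag, 327 (6.88%, 95% Clopper-Pearson interval 6.17% to 7.63%) met it. Of 2762 cells with the Mgl2DTR and the third hashtag 210 (7.60%) met it, and of 2312 with the B6WT and the third hashtag 116 (5.02%). The median depth of these pairs was 5227, 6614 and 8083 UMIs per cell.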

How the results depend on the processing

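The higher share of pDC in Mgl2DTR kept its direction in all 8 alternatives tried, at a ratio of 1.38 to 1.91. It was 1.38 when each excluded sum had to be 0 and 1.91 without the 25% of cells with the lowest hashtag margin. None of the 8 lifted the limits on other cell types. With these lifted, 1359 of 7433 Mgl2DTR and 1600 of 11586 WT cells held at least 4 lead UMIs. The ratio of these shares keeps the direction but lies below that range.

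Counts of called genes depended on which cells and which sizes were used. Against 539 genes higher over all pDC there were 324 with at least 8 lead UMIs, 214 with excluded sums of 0, 253 in cells of 2000 to 20000 UMIs, 125 in the core, 147 after thinning, 211 at 200 or more counts, 241 at a size of 2, 144, 102 and 122 in the core with equal weights, thinned or with the same cluster mix in both genotypes, and 114 in cluster 1. Against 219 lower there were 131 after thinning, 68 at 200 or more counts, 51 at a size of 2 and 121 in the thinned core. Immediate early genes higher (15 over all pDC) numbered 6 in the core, 6 at a size of 2, 7 in the core with equal weights, 6 in the thinned core, 7 in cluster 1 and 7 with the same cluster mix.

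Cell cycle genes higher (18) numbered 4 at 8 lead UMIs, 5 with excluded sums of 0, 1 between 2000 and 20000 UMIs, 3 with equal weights, 1 thinned, 5 at a size of 2 and 0 in the core, its equal-weight, thinned and same-mix forms and cluster 1. Neutrophil markers higher (10) numbered 6 between 2000 and 20000 UMIs, 6 thinned and 0 in the core, its 3 forms and cluster 1. The core leaves out clusters 3 and 8, so its counts of 0 for the cell cycle and neutrophil lists follow in part from that choice. Interferon-stimulated genes higher (6) numbered 3 with excluded sums of 0, without doublets, between 2000 and 20000 UMIs, thinned or at 200 counts, 1 in the thinned core and 0 in the core, its equal-weight and same-mix forms and cluster 1. Transitional genes lower (4) numbered 1 with excluded sums of 0 or thinned and 2 without doublets, between 2000 and 20000 UMIs, with equal weights, at 200 counts or at a size of 2.

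Single genes whose ratio over all pDC turned to the other side of 1 were few. In the core, the core with equal weights and cluster 1, Ccl6 was at 0.917 and 0.988 in the first 2, Cxcl2 at 0.419, 0.585 and 0.619, Dut at 0.845 and 0.882 in the first 2, Lcn2 at 0.832, 0.946 and 0.862, and Top2a at 0.570, 0.558 and 0.521. Top2a was also at 0.989 with excluded sums of 0 and 0.943 between 2000 and 20000 UMIs. Hist1h2ap was at 0.999 in cluster 1 and Il4i1 at 1.01 in the core with equal weights. Ctsg was at 1.48 with a lead sum of 2 and at 5.71 without doublets. Il4ra was at 0.991 in the core, 0.650 in the thinned core and 0.917 in cluster 1, and Hspa1a at 0.545 thinned and 0.585 in cluster 1. With the same cluster mix, Ccl6 was at 0.903, Cxcl2 at 0.455, Dut at 0.875, Lcn2 at 0.827, Il4i1 at 1.04, Top2a at 0.572 and Il4ra at 0.978. The cause was not tested. Of 1698 recomputed gene values, 31 turned and 1487 kept their direction and call. The core and its forms were chosen after seeing the data. No paired analysis was possible because each genotype is 1 hashtagged part of the pool. Precision is limited by counting for genes near 50 UMIs, and with no replicate of either genotype nothing here measures the spread between animals.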
